A study of Mus musculus with 4 samples.

Results

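The troponin subunit family comprised 8 genes, chosen by name as the genes encoding troponin C (Tnnc1, Tnnc2), troponin I (Tnni1, Tnni2, Tnni3) and troponin T (Tnnt1, Tnnt2, Tnnt3), out of 22298 genes in the table of counts. All 8 were found by their Ensembl identifiers, and 7 of them had enough reads to be among the 12888 genes tested. Their RNA was measured by RNA-seq in brown adipose tissue (BAT) of C57BL/6 mouse fetuses (C57BL/6J in the study's methods) on embryonic day E18.5 of gestation. The dams drank tap water (control, 2 libraries) or water with 20% (w/v) fructose (fructose, 2 libraries) during pregnancy, and the labels name no other treatment or allele. The sources used here do not say whether a library held the tissue of 1 fetus or of several, nor whether the libraries of a group came from different dams, so the p-values measure the spread between these libraries only.

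Troponin is the calcium switch of striated muscle. Troponin C binds calcium, troponin I blocks the interaction of actin with myosin at low calcium, and troponin T anchors the complex to tropomyosin along the thin filament. Each subunit has genes typical of fast skeletal fibres (Tnnc2, Tnni2, Tnnt3), of slow skeletal fibres (Tnnc1, Tnni1, Tnnt1) and of the heart (Tnni3 and Tnnt2, with Tnnc1 shared between slow fibres and heart). Slow skeletal troponin I is also made by the fetal heart, and cardiac troponin T by developing skeletal muscle. Brown adipocytes share a dermomyotomal precursor with skeletal muscle, and the troponins are textbook markers of striated muscle rather than of fat.

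The libraries held 19224529 and 18542897 counts in control and 22461298 and 23645147 in fructose. Levels are given as CPM (counts scaled by the size of the library) after TMM normalization, which scales each library to the bulk of its genes, and 3 counts, the limit used here for a gene not detected, corresponded to 0.122 to 0.166 CPM. The brown adipocyte gene Ucp1, the uncoupling protein of thermogenesis, averaged 11065 CPM in control and 10305 CPM in fructose. All 4 libraries were labelled male, yet the summed counts of 4 genes of the Y chromosome (Uty, Kdm5d, Ddx3y and Eif2s3y) were 422 and 390 for control but 0 for each fructose library, so maternal fructose and this difference cannot be told apart in any result below. Reads of mitochondrially encoded genes took 5.89% and 6.49% of the counts in control and 10.8% and 11.2% in fructose. Over all tested genes, 2001 were higher and 1379 lower in fructose. The split moved to 2242 higher and 859 lower when libraries were scaled by their totals alone, and to 713 higher and 783 lower when trends with exon length and GC content, which correlated with the log2 fold changes across genes (Spearman's rho 0.46 and -0.50), were removed.

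The genes lie on 4 chromosomes of the GRCm38 (mm10) genome, and 3 pairs of a troponin I and a troponin T gene are neighbours. Tnni1 (chr1:135779434-135810989, + strand) is followed after 25.4 kb by Tnnt2 (chr1:135836354-135852260, + strand), with Lad1 between them. Tnnt1 (chr7:4504570-4516382, - strand) and Tnni3 (chr7:4518305-4524229, - strand) are 1922 bases apart with no coding gene between. Tnni2 (chr7:142441808-142444410, + strand) and Tnnt3 (chr7:142498836-142516009, + strand) are 54.4 kb apart with Lsp1 between. Tnnc1 (chr14:31208312-31211729, + strand) lies within an intron of Nisch on the other strand, and Tnnc2 (chr2:164777161-164779967, - strand) overlaps Ube2c, a ubiquitin-conjugating enzyme gene of the cell cycle.

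Because 7 of these genes moved together, 100 bases upstream of an annotated start of transcription are shown for the 6 genes with a RefSeq promoter entry (build GRCm38.p6), each read 5′ to 3′ along its gene. Each window ends just before the most upstream exon start annotated near the RefSeq start, which is 7 bases from that start in Tnnc2, 19 in Tnni1, 29 in Tnnt1 and 0 in the others. Tnni1 and Tnnt2 each have 2 RefSeq entries, of which the upstream was used. The windows of Tnnc2, Tnni1, Tnnt1 and Tnni3 lie inside the gene spans given above, which include transcripts that start further upstream. Capitals mark matches on either strand to CANNTG, the E-box bound by myogenic factors, or to CATTCC, the MCAT element.
Tnnc1, chr14:31208212-31208311, + strand: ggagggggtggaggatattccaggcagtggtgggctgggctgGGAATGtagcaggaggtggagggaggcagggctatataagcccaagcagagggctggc
Tnnc2, chr2:164779742-164779841, - strand: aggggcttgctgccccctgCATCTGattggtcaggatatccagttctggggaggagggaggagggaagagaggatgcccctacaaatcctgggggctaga
Tnni1, chr1:135799302-135799401, + strand: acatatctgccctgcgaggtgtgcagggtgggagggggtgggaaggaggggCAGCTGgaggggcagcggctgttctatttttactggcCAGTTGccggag
Tnnt1, chr7:4516005-4516104, - strand: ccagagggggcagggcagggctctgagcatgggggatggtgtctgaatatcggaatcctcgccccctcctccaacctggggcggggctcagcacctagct
Tnnt2, chr1:135836234-135836333, + strand: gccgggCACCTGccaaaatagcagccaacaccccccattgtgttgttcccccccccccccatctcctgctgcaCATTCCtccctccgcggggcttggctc
Tnni3, chr7:4522529-4522628, - strand: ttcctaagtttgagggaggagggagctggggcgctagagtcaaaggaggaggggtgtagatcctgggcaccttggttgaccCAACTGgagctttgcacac
CANNTG was in 4 of the 6 windows, against 34.4% of all 32851 RefSeq windows of this length, and CATTCC in 2 of 6, against 4.71%. The windows of the whole set ended just before each RefSeq start, without such shifts, and included every entry of a gene. CAGCTG, a form of CANNTG, was in 1 of 6, against 5.81%. TATAAA (5.56% of all windows), the MEF2 site (0.992%) and the CArG box (0.615%) were in none of the 6. Tnni3, which was hardly read at all, and Tnni1, which was read in every library, both held a CANNTG match. Tnnc1 and Tnnt1, also read in every library, held none. Whether these matches bear on the levels was not tested. Windows of Tnni2 and Tnnt3 are not shown.

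The 7 tested troponin genes were all higher in the fructose libraries, with fold changes between 2.05 and 3.13, and none was lower. Tnnt2, at the upper end, had 10 and 5 counts in control and enough reads to be tested only through the fructose libraries. Where at least 10 counts were required in every library, 6 troponin genes were tested and all 6 were higher, against 16.1% of all genes. Over all 12888 tested genes, 15.5% were called higher and 10.7% lower at an adjusted p under 0.05 (edgeR quasi-likelihood test, two-sided, with Benjamini-Hochberg adjustment over all tested genes, called the edgeR adjusted p from here on). In each of the 7 genes both fructose libraries stood above both control libraries, an order that 33.4% of all tested genes had. The median log2 fold change of the 7 was 1.42, against 0.00 over all tested genes. In bulk tissue, more cells that express a gene and more RNA of it per cell cannot be told apart.

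**Figure D1:**
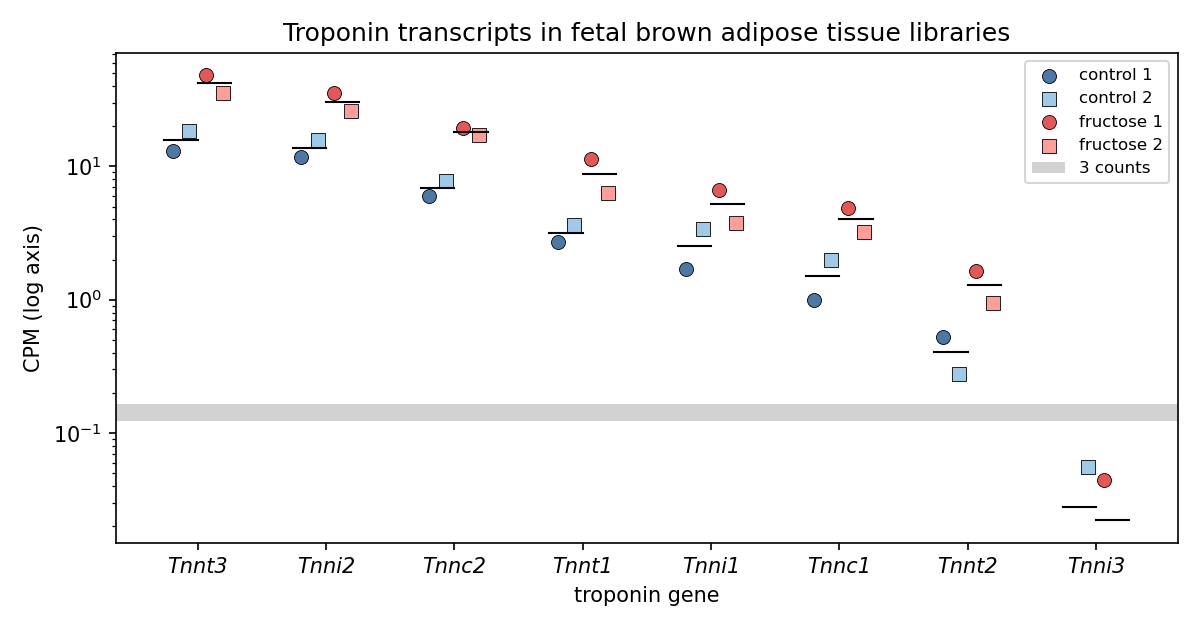
Level of each troponin gene (CPM, log axis) in the 2 control and 2 fructose libraries, with a black line at each group's mean and a grey band at the CPM that 3 counts correspond to. In the 7 genes from Tnnt3 to Tnnt2 both fructose points lie above both control points, while Tnni3 lies under the band, and its libraries at 0 counts are not drawn.

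Among the fast skeletal genes, Tnnt3, fast troponin T, was read at 13.1 and 18.4 CPM in control, against 48.3 and 35.8 CPM in fructose. The lower fructose library thus stood well above the higher control library. Its log2 fold change was 1.42 ± 0.17 (SE, n = 2 libraries per group, edgeR adjusted p = 0.00034). Tnni2, fast troponin I, was at 11.7 and 15.8 CPM in control, against 35.5 and 25.8 CPM in fructose, again without overlap. It had the smallest change of the 3 fast genes, a log2 fold change of 1.16 ± 0.17 (SE, n = 2 per group, edgeR adjusted p = 0.0011). Tnnc2, fast troponin C, was at 6.02 and 7.71 CPM in control, against 19.4 and 17.1 CPM in fructose. The 2 fructose libraries were closest to each other in this gene, and its log2 fold change was 1.41 ± 0.16 (SE, n = 2 per group, edgeR adjusted p = 0.0003). The calls of Tnnt3, Tnni2 and Tnnc2 held in all 15 alternative settings, with log2 fold changes from 1.19 to 1.68, from 0.91 to 1.44 and from 1.24 to 1.77.

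The value of Tnnc2 has a limit of annotation. Of the 800 exon bases of Tnnc2, 592 (74.0%) lie inside the last exon of the longer of the annotated Ube2c transcripts, on the other strand, and 84.6% of the coding transcript of Tnnc2 lies there. The shorter Ube2c transcript shares no base with it. The sources used here do not state whether reads were assigned by strand, and without strand the reads of the genes in this stretch cannot be told apart. Ube2c had 576 and 545 counts in control and 546 and 445 in fructose, a log2 fold change of -0.52 ± 0.13 (SE, n = 2 per group, edgeR adjusted p = 0.014), the opposite direction to Tnnc2.

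**Figure D2:**
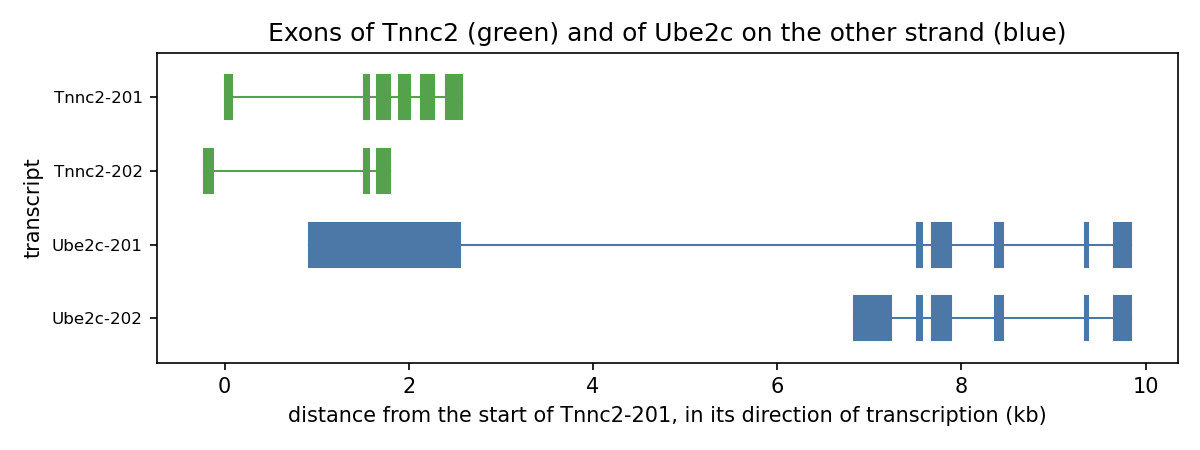
Exons (boxes) of the annotated transcripts of Tnnc2 (green) and of Ube2c on the opposite strand (blue), by distance in kb from the start of the coding Tnnc2 transcript along its direction of transcription. The last exon of the longer Ube2c transcript covers all exons of that transcript but the first and a short end, which is 592 shared bases, while the shorter Ube2c transcript ends before it.

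Among the slow skeletal genes, Tnnt1, slow troponin T, was read at 2.69 and 3.60 CPM in control, against 11.3 and 6.29 CPM in fructose. All fructose values lay above the control values, and the fructose libraries differed from each other by a factor of 1.80. The log2 fold change was 1.48 ± 0.28 (SE, n = 2 per group, edgeR adjusted p = 0.0037), and the call held in all 15 alternatives. Tnnc1, the troponin C of slow fibres and heart, was at 1.003 and 1.996 CPM in control, against 4.86 and 3.23 CPM in fructose. Its log2 fold change was 1.43 ± 0.35 (SE, n = 2 per group, edgeR adjusted p = 0.012), and without the first fructose library it was 1.11 with an edgeR adjusted p of 0.069. Nisch, the gene that surrounds Tnnc1 on the other strand and shares no exon base with it, had a log2 fold change of 0.08 ± 0.09.

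Tnni1, slow troponin I, was the least separated of the tested genes. It was read at 1.69 and 3.38 CPM in control, against 6.63 and 3.76 CPM in fructose, so that the higher control library came close to the lower fructose library. The log2 fold change was 1.03 ± 0.35 (SE, n = 2 per group, edgeR adjusted p = 0.045). The call was lost in 5 of 15 alternatives, namely with DESeq2 (adjusted p = 0.059), with the GC trend removed (edgeR adjusted p = 0.07), with both trends removed (0.06), without the first control library (0.089) and without the first fructose library (0.32), where the log2 fold change was 0.57.

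Of the cardiac genes, Tnnt2, cardiac troponin T, was scarce. It had 10 and 5 counts in control and 37 and 23 in fructose, or 0.528 and 0.277 against 1.64 and 0.939 CPM. The groups did not overlap, and the log2 fold change was 1.65 ± 0.51 (SE, n = 2 per group, edgeR adjusted p = 0.034), the largest of the family and the one with the largest error. The call was lost in 4 of 13 alternatives, with the length trend removed (edgeR adjusted p = 0.063), with both trends removed (0.068), without the second control library (0.12) and without the first fructose library (0.3). DESeq2 gave it no adjusted p, and it was not tested where at least 10 counts were required in every library. Tnni3, cardiac troponin I, had 0 and 1 counts in control, against 1 and 0 in fructose. Each is under the 3 counts that a count of 0 allows, so no fold change is given, and a difference was not detectable at this depth.

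**Figure D3:**
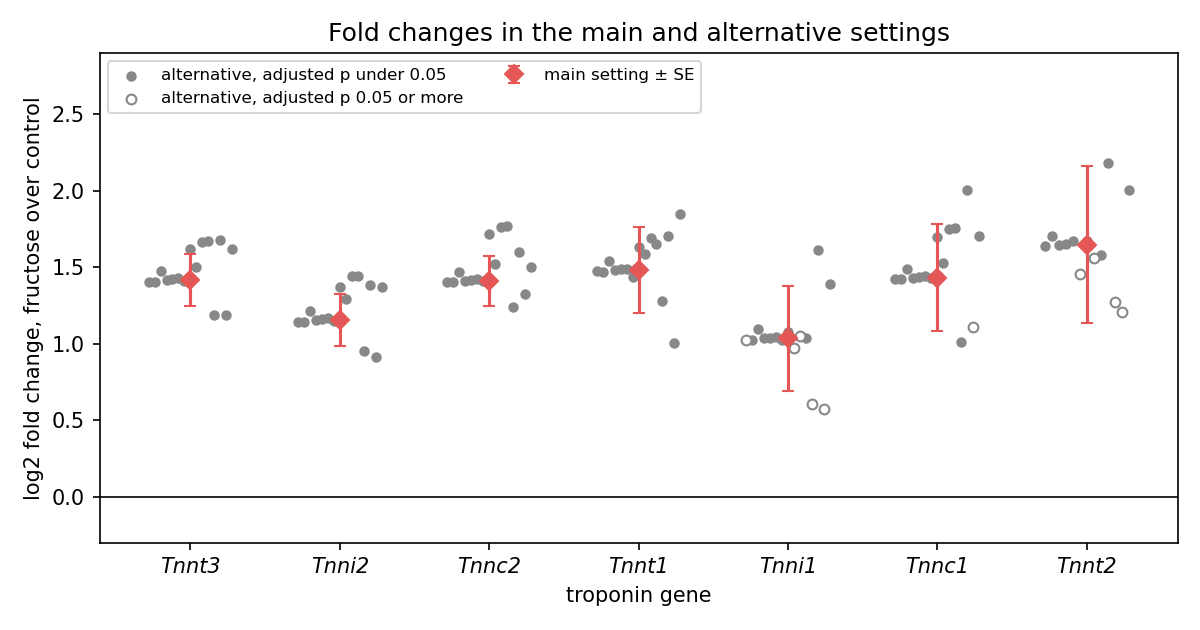
Log2 fold change (fructose over control) of the 7 tested troponin genes, with the main setting as red diamonds (bars, SE, n = 2 libraries per group) and each alternative setting as a grey point, filled where its adjusted p was under 0.05. Every point lies above 0, and open points occur for Tnni1 (5 of 15), Tnnc1 (1 of 15) and Tnnt2 (4 of 13).

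Within a group, the same library tended to be the higher across the family. The first fructose library was above the other in all 7 tested genes, by factors of 1.13 (Tnnc2) to 1.80 (Tnnt1). In control the second library was above the first in 6 of 7, by factors of 1.28 (Tnnc2) to 2.003 (Tnni1), with Tnnt2, the gene with the fewest counts, as the exception at 0.525. Without the first fructose library 4 of the 7 genes were called higher, where 11.6% of all genes were, and the fructose group's spread was then taken from control.

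Scaled to exon length, the fast genes were the most abundant in both groups. In control, Tnnt3 averaged 9.95 ± 2.38, Tnni2 9.19 ± 1.93 and Tnnc2 8.577 ± 1.495 CPM per kb of exon (SD, n = 2), and the ranges of the 3 overlapped. The slow genes followed well below, with Tnnc1 at 1.44 and Tnnt1 at 1.43, overlapping, and Tnni1 at 0.704 CPM per kb. Tnnt2 was at 0.0519 and Tnni3 at 0.0134 CPM per kb. In fructose the order was Tnnt3 at 26.6, Tnnc2 at 22.8 and Tnni2 at 20.5 CPM per kb, overlapping, then Tnnt1 at 3.99 and Tnnc1 at 3.89, overlapping, then Tnni1 at 1.44, Tnnt2 at 0.166 and Tnni3 at 0.0107 CPM per kb.

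The isoform classes differed between the groups by similar factors. Summed over Tnnc2, Tnni2 and Tnnt3, the fast class was at 23.6 and 31.8 CPM per kb in control and 78.4 and 61.2 in fructose, a ratio of means of 2.52. The slow class (Tnnc1, Tnni1, Tnnt1) was at 2.65 and 4.49 against 11.7 and 6.99 CPM per kb, a ratio of 2.61. With 2 against 2 libraries an exact permutation test, two-sided, cannot go below p = 0.333, the value both sums reached. Within each library the fast over slow ratio on the log2 scale was 3.15 and 2.82 in control and 2.75 and 3.13 in fructose, which overlap, with a difference of -0.05 (exact permutation p = 0.667).

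The fast share of each subunit showed the same overlap. Of the length-scaled troponin C level, Tnnc2 made up 88.7% and 83.4% in control and 83.8% and 87.3% in fructose. Of troponin I, Tnni2 made up 94.3% and 91.6% in control and 92.7% and 94.3% in fructose. Of troponin T, Tnnt3 made up 86.5% and 87.4% in control and 85.1% and 88.4% in fructose. The mean differences, fructose minus control, were -0.44, 0.52 and -0.25 percentage points (exact permutation p = 1 for each). On this length-scaled measure the share was largest for troponin I in all 4 libraries, but by counts troponin T (82.6%) exceeded troponin I (82.1%) in the second control library. The 95% Wilson intervals, which cover counting error only, ran for troponin C from 82.8% to 92.7% in the first control library, on 133 counts, and from 84.4% to 89.8% in the second fructose library, on 498 counts.

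**Figure D4:**
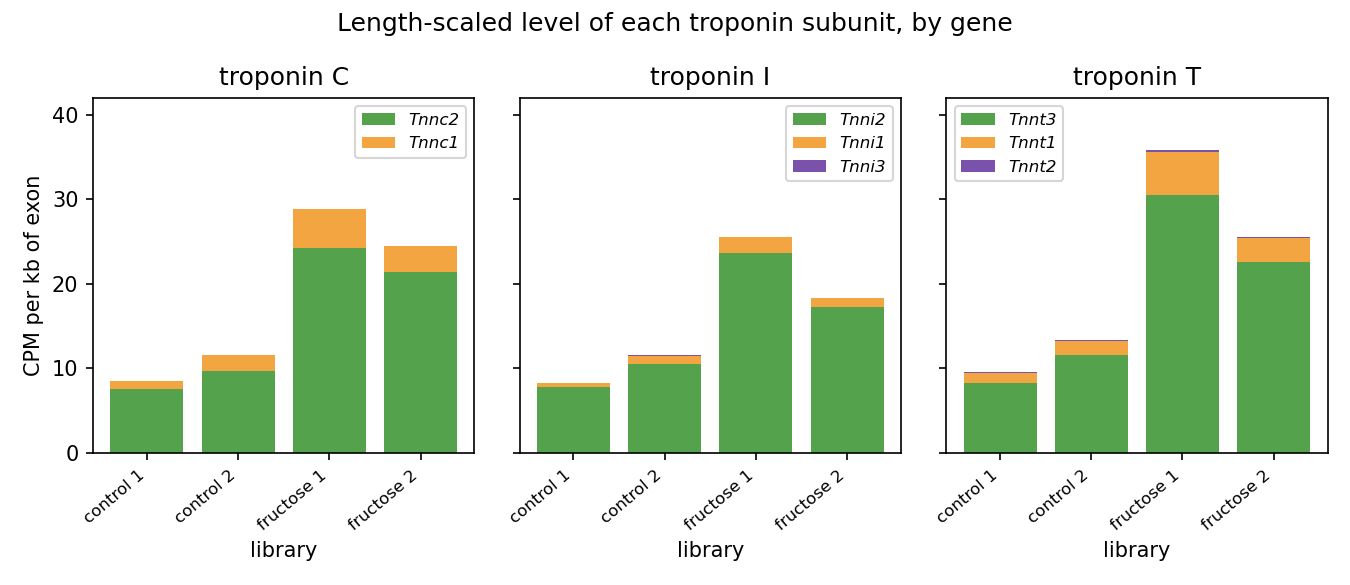
Length-scaled level (CPM per kb of exon, bars from 0) of troponin C, I and T in each library, stacked by gene with the fast gene in green, the slow gene in orange and the cardiac gene in purple. The green part is 83.4% to 94.3% of every bar, and the troponin T bars exceed the troponin I bars by more in the fructose libraries.

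The balance of troponin T and troponin I did not overlap between the groups. The ratio of summed troponin T to summed troponin I, in CPM per kb, was 1.15 in both control libraries, against 1.40 in both fructose libraries, a log2 difference of 0.28 (exact permutation p = 0.333, the smallest these libraries can give). Between the fast genes alone, Tnnt3 over Tnni2 was 1.06 and 1.10 in control and 1.29 and 1.31 in fructose, a log2 difference of 0.27. The counting error of this log2 ratio was 0.13 and 0.12 for control and 0.07 and 0.08 for fructose, more than the gap between the libraries of a group. Tnnt3 over Tnnc2 overlapped between the groups, at 1.10 and 1.21 in control against 1.26 and 1.06 in fructose. Tnni2 over Tnnc2 did not overlap, at 1.04 and 1.10 in control against 0.979 and 0.807 in fructose (log2 difference -0.26), nor did summed troponin I over troponin C, with a log2 difference of -0.28 (exact permutation p = 0.333 for each). These ratios were chosen after their values were seen.

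Genes with which troponin works on the thin filament were described by a list of 15, of which 14 were tested, 10 were higher and none lower, against 15.5% and 10.7% of all genes, with a median log2 fold change of 1.23. The 3 with the highest mean over all libraries follow. Acta1, skeletal alpha-actin, averaged 114 CPM in control and 253 CPM in fructose, a log2 fold change of 1.15 ± 0.18 (SE, n = 2 per group, edgeR adjusted p = 0.0013). Tpm1, a tropomyosin that non-muscle cells also make, had a log2 fold change of 0.44 ± 0.09 (edgeR adjusted p = 0.005). Tpm3, the slow fibre tropomyosin gene that is also widely expressed outside muscle, averaged 107 CPM (control) and 103 CPM (fructose), a log2 fold change of -0.04 ± 0.09 (edgeR adjusted p = 0.74). All 7 tested troponin genes had larger fold changes than Tpm1. Within the list, log2 fold changes ran from -0.18 (Kbtbd13) to 2.25 (Klhl40, with 3 and 8 counts in control). They thus lay both below and above those of the troponin genes.

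For the release and uptake of the calcium that troponin C binds, 15 genes were listed, 13 were tested, 7 were higher and none lower, against 15.5% and 10.7% of all genes, with a median log2 fold change of 1.27. Atp2a2, the calcium pump of slow fibres, heart and many other cells, was the most abundant with means of 163 CPM (control) and 175 CPM (fructose), with a log2 fold change of 0.11 ± 0.08 (edgeR adjusted p = 0.37). Atp2a1, the fast fibre pump, went from 15.3 to 41.8 CPM, a log2 fold change of 1.46 ± 0.18 (edgeR adjusted p = 0.00046). Casq2, a calcium store protein of slow fibres and heart, went from 6.63 to 14.9 CPM, a log2 fold change of 1.17 ± 0.21 (edgeR adjusted p = 0.0027).

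Markers of skeletal muscle moved with the troponins. Of 28 listed, 25 were tested, 23 were higher and none lower (15.5% and 10.7% of all genes), with a median log2 fold change of 1.43, and their summed level was 345 and 451 CPM in control and 996 and 768 CPM in fructose. Fast fibre markers were higher in 9 of 9 tested (10 listed, median 1.43), and the most abundant of them, Mylpf and Myl1, the regulatory and essential myosin light chains of fast fibres, had log2 fold changes of 0.98 ± 0.13 and 1.34 ± 0.13 (edgeR adjusted p = 0.00066 and 0.00015). Slow fibre markers were higher in 5 of 8 tested (9 listed, median 1.09), with a ratio of summed levels of 1.28. The most abundant of them is Tpm3, given above at -0.04, which held 101 and 112 of the summed 118 and 144 CPM in control. The next, Mybpc1, slow myosin-binding protein C, had a log2 fold change of 1.78 ± 0.24 (edgeR adjusted p = 0.00064). The slow fibre markers not called were Tpm3, Myl2 (0.93 ± 0.40, edgeR adjusted p = 0.11) and Myl3 (0.62 ± 0.30, 0.15), myosin light chains shared with the heart. Developmental muscle markers were higher in 6 of 8 tested (11 listed, median 1.96), the most abundant being Myh8 and Myh3, the perinatal and embryonic myosin heavy chains, at 1.84 ± 0.11 and 2.13 ± 0.30 (edgeR adjusted p = 9.9e-06 and 0.00085). Several of the called markers had few counts in control, such as Myh2 (3 and 3), Pvalb (8 and 5), Chrng (2 and 3) and Chrnd (3 and 5). Such genes had enough reads to be tested only through the fructose libraries, so the filter favoured markers that were higher there. These muscle lists overlap in part. Every fast fibre marker except Pvalb is also in the skeletal muscle list, as are Myh3, Myh8 and Mybpc1. The counts of these lists are therefore largely counts of the same genes. Atp2a1, Casq1, Casq2, Pvalb, Ryr1 and Cacna1s are also in the calcium list, and Acta1, Neb, Klhl41, Lmod2 and Tpm3 in the thin filament list. The part of muscle tissue in the troponin values was not tested.

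The troponin sum was set against the muscle markers within each library. It equalled 10.7% and 11.4% of the summed skeletal muscle markers in control and 12.8% and 12.1% in fructose, a log2 difference of 0.18 (exact permutation p = 0.333), and 35.4% and 36.8% of the fast fibre markers in control against 42.7% and 37.5% in fructose. The groups did not overlap in either, but the lists share every fast fibre marker except Pvalb. Against the geometric mean of the tested skeletal muscle markers, which gives each gene the same weight, the direction turned to -0.17 on the log2 scale.

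Markers of the heart, the other tissue that makes Tnnc1 and Tnnt2, were nearly absent. Of 16 listed, 7 (Nppb, Nkx2-5, Tbx20, Gata4, Hand2, Pln and Bmp10) were at 0 in every library and 11 at or under 3 counts in every library, and only Tbx5 and Slc8a1, which other tissues also express, were tested, with neither called. The summed level was 8.29 and 9.09 CPM in control and 6.50 and 8.57 CPM in fructose. Most of it came from Tbx5, with 6.17 and 6.54 CPM in control and 3.45 and 5.06 CPM in fructose. Myh6, the atrial and adult mouse heart myosin, was at 0 in control, with 2 and 5 counts in fructose.

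Brown adipocyte markers were higher in 3 (Elovl3, Ppargc1a and Ebf2) and lower in 3 (Cox8b, Cox7a1 and Adipoq) of 12 tested, against 15.5% and 10.7% of all genes, with summed levels of 23993 and 25882 CPM in control and 23948 and 22072 CPM in fructose. The most abundant, Ucp1 and Fabp4, a fatty acid carrier, had log2 fold changes of -0.10 ± 0.13 and -0.13 ± 0.10 (edgeR adjusted p = 0.59 and 0.36). Erythroid markers were lower in 5 of 9 tested (10.7% of all genes) and higher in none, with sums of 19205 and 15296 CPM in control against 11767 and 12142 CPM in fructose. The part of these differences in the troponin values was not tested.

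**Figure D5:**
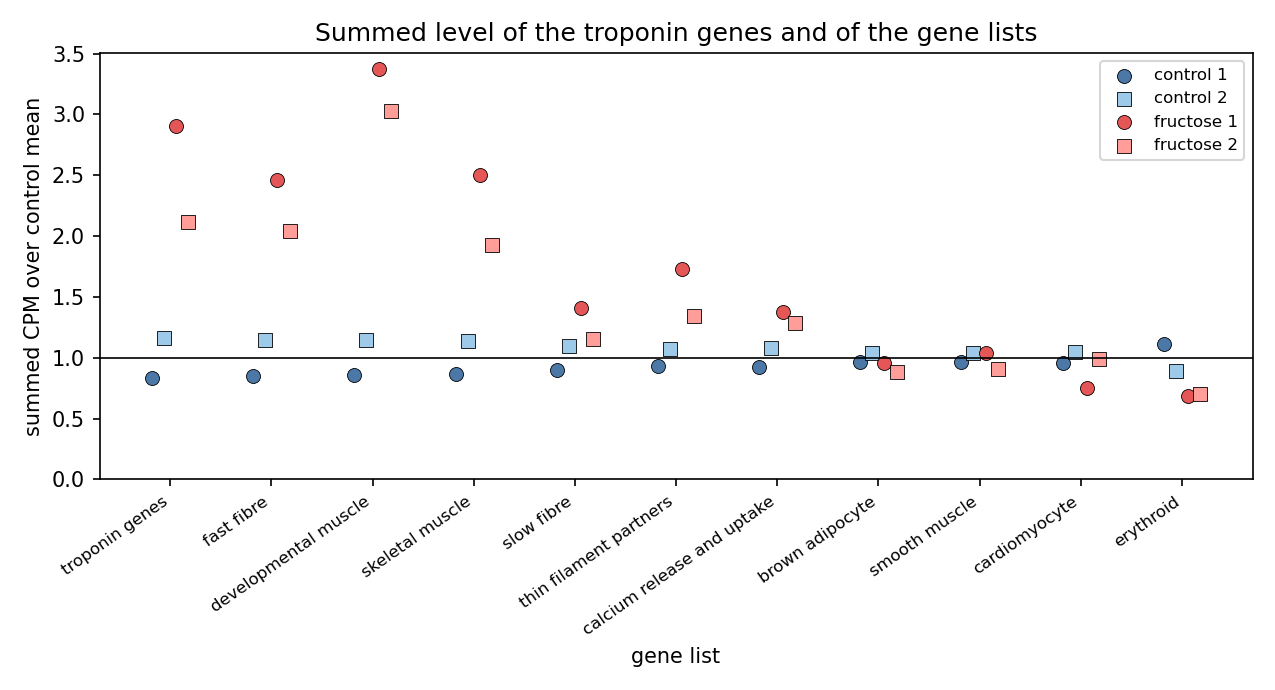
Summed CPM of the troponin genes and of each gene list in every library, divided by the mean of the 2 control libraries (line at 1). The troponin genes and the fast fibre, developmental and skeletal muscle lists have both fructose points well above the line, those of the slow fibre, thin filament and calcium lists lie above it by less, and the erythroid points of fructose lie below it, while the brown adipocyte, smooth muscle and cardiomyocyte lists stay near it or below it in all 4 libraries. In every library most of the slow fibre sum came from Tpm3 and most of the calcium sum from Atp2a2, genes also expressed outside muscle. Most of the cardiomyocyte sum came from Tbx5, which other tissues also express.

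Of 10 tested genes that overlap a troponin gene or lie next to it, troponins themselves left out, none was higher and 4 were lower (15.5% and 10.7% of all tested genes). Lad1, between Tnni1 and Tnnt2, was at 0 in control, with 2 and 0 counts in fructose. Lsp1, a leukocyte protein gene between Tnni2 and Tnnt3, had 187 and 146 counts in control and 145 and 168 in fructose, a log2 fold change of -0.44 ± 0.17 (edgeR adjusted p = 0.083). Mrpl23, a mitochondrial ribosomal protein gene on the far side of Tnnt3, was lower, with a log2 fold change of -0.58 ± 0.08 (edgeR adjusted p = 0.00073).

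The genes whose pattern over the 4 libraries was most like that of the fast troponin sum, among 12888 tested genes and by the root mean square difference of log2 values after centring, were Dzip3 (0.02), Synpo2l (0.04), Cox6a2 (0.05), Gm12258 (0.06) and Cep83 (0.06). For the slow troponin sum they were Hfe2 (0.03), Cav3 (0.08), B3gat2 (0.10), Olfr552 (0.11) and Jsrp1 (0.11). Cox6a2, a cytochrome oxidase subunit of striated muscle, was at 1.48 and 2.22 CPM in control, against 5.22 and 4.16 CPM in fructose, and Cav3, the muscle caveolin, at 0.475 and 0.887 against 2.65 and 1.51 CPM. Several of these genes had few counts, such as Dzip3 with 7 and 10 counts in control and 33 and 27 in fructose. Olfr552 had 2 and 5 counts in control and 17 and 12 in fructose. The log2 values of the genes, but not of the troponin sums, were computed with a prior count of 2.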

How the data were processed

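Purified RNA of fetal BAT was sequenced in 2 control and 2 fructose libraries. The authors filtered reads with fastp, mapped them to mm10 with Bowtie2 (2.0.0.5) and TopHat2 (2.0.0), assembled transcripts with StringTie (2.2.0), merged the assemblies with Cuffmerge and took counts per gene from the merged file; the deposited values are these raw counts, with no normalization. The counting tool, its strand setting and the annotation release are not given in the sources used here. The 4 tables of single libraries held the same counts as the total table, which was used. Symbols, exon lengths and coordinates came from GENCODE M21 (GRCm38), in which 43 of 22298 identifiers had no match. Genes kept by filterByExpr (12888) were tested with edgeR 4.0.16 in R 4.3.3 (TMM, quasi-likelihood test, two-sided, Benjamini-Hochberg, threshold 0.05); the fit was tested on simulated counts. CPM per kb is CPM divided by the length of the union of a gene's exons. Ratios and shares were compared by exact permutation tests. Intervals and floors cover counting error only. Alternatives were DESeq2 1.42.0, other size factors, other filters, length and GC trends removed (lowess, span 0.3), the replicate block and leaving out each library. The named genes were all 8 troponins, the 3 most abundant of the thin filament and calcium lists, the most abundant of each marker list and the 5 most alike per class, with cardiac markers at 0, uncalled slow fibre markers, called brown adipocyte and smooth muscle markers and neighbouring genes added after their values were seen. A gene that this rule names is not reported here. The members and lists were chosen with earlier results of these data known. Muscle markers with few counts in control were also named after their values were seen. Promoter sequences were taken from RefSeq (GRCm38.p6), with 6 of 8 genes matched.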

Additional observations from a re-analysis of the deposited data

How the results depend on the processing

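The calls of Tnnc2, Tnni2, Tnnt1 and Tnnt3 held in all 15 alternatives, and no troponin gene was lower in any. The count of troponin genes called higher ranged from 4 (without the first fructose library) to 7 over the fits that left out 1 library, in which the lone library was assumed to vary like the other group. It was 5 with DESeq2 and with both trends removed. Their median log2 fold change, 1.42, ranged from 1.11 to 1.62 over those fits and was 1.67 with length and GC trends removed, or 1.65 with the replicate block as well. Of the thin filament genes, 6 of the 10 still tested were higher where at least 10 counts were required in every library. The troponin level over the geometric mean of the muscle markers was -0.17 on the log2 scale, against 0.18 over their sum. With the replicate block alone 7 troponin, 10 thin filament and 7 calcium genes were higher, and no call of a troponin gene changed. Libraries of the same number did not deviate together (correlation -0.03). With 2 libraries per group, this value cannot show whether they shared a batch. Over all genes, 2001 higher and 1379 lower became 1271 and 1135 with the length trend removed, 1091 and 1132 with the GC trend removed, 713 and 783 with both, 1207 and 485 without the second fructose library and 1518 and 825 without the first. The median of all genes was 0.06 with library totals alone. Few counts limit Tnnt2 and Tnni3 most.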

Other observations

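Lists of other cell types that could be in fetal BAT were read beside the troponins. Muscle progenitor markers were scarce: of 8 listed, 4 were tested, 1 was higher and 1 lower, and Pax3 was at 0 in every library. Itga7, an integrin of muscle and Schwann cells and the most abundant of them, was lower at a log2 fold change of -0.25 ± 0.08 (SE, n = 2 per group, edgeR adjusted p = 0.042). Of 9 tested smooth muscle genes 2 were higher and none lower, against 15.5% and 10.7% of all genes. Those higher were Cald1, caldesmon, at 0.62 ± 0.11 and Synpo2, an actin-binding protein, at 0.81 ± 0.20 (edgeR adjusted p = 0.002 and 0.013), named after their values were seen. The most abundant, Acta2, smooth muscle actin, and Smtn, smoothelin, had log2 fold changes of -0.18 ± 0.12 and -0.23 ± 0.10 (edgeR adjusted p = 0.3 and 0.12). Of 7 tested Schwann cell and nerve genes none was called, with Pmp22, a myelin protein, at 0.04 ± 0.09 and S100b, a calcium-binding protein of glia and adipocytes, at -0.10 ± 0.10. The most abundant erythroid genes, Hbb-bs and Hba-a2, adult globins, had log2 fold changes of -0.54 ± 0.12 and -0.50 ± 0.12 (edgeR adjusted p = 0.0064 and 0.011), and reads of such near-identical globin copies may be split uncertainly.

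Tnnc2 is also among the genes with listed qRT-PCR primers. Mismatches to the closest stretch of its coding transcript are in capitals.
Tnnc2 forward primer: cggCTcCatcgactttgaag
Tnnc2 reverse primer: aGcagCTCAtcgatctcctc
The forward primer had 3 mismatches in 20 bases and the reverse primer 5 in 20, and neither had an exact match in any of 141767 GENCODE M21 mouse transcripts. For 31 of the 38 pairs listed as mouse, both primers had an exact match somewhere among these transcripts. Whether these matches lay in the named gene was not checked.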
